A study of Mus musculus with 68 samples.

Results

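The 9 genes described here make, package, take back and break down dopamine: Th, Ddc, Slc6a3, Slc18a2, Gch1, Qdpr, Pts, Maoa and Maob. They were taken by gene symbol from a table of 36172 genes, and 17940 of those were above 0 in some cell. The table holds 68 single neurons from the ventral tegmental area (VTA) of 12-month-old mice, 33 from 3xTg mice and 35 from wild-type (WT) mice. 3xTg mice are homozygous for mutant human transgenes that include APP Swe and tau P301L and model amyloid and tau pathology, and the WT mice were a separate non-transgenic line on the same hybrid background. Both sexes were used, and no label ties a cell to a mouse or a sex. Each neuron was recorded in a brain slice, drawn into the recording pipette together with its nucleus and sequenced as its own library (Patch-seq). The study kept only cells positive for Th, Slc6a3 and Slc18a2, so the presence of these 3 transcripts in every cell follows from how the cells were chosen. It also describes the kept cells as negative for Pvalb, Tmem119, P2ry12 and Aldh1l1. In the deposited counts, however, 5 3xTg and 5 WT cells were above 0 for such a marker.

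Dopamine neurons convert tyrosine to L-DOPA with tyrosine hydroxylase and L-DOPA to dopamine with aromatic amino acid decarboxylase. The hydroxylase needs tetrahydrobiopterin, a cofactor that the cell builds from GTP and regenerates after each cycle. Dopamine is loaded into vesicles, released, recaptured at the membrane and oxidised by monoamine oxidases on the mitochondrial outer membrane.

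Values are estimated counts divided by a size factor for each cell (normalized counts), or log2 of the normalized count plus 1. Since cells could not be assigned to mice, each genotype counts as 1 sample. No p-value is therefore given, and every SD describes the spread between cells and not between animals. Total counts per cell ran from 492505 to 1678624, with a median of 1194457 in 3xTg and 982390 in WT, and the median number of genes detected was 8511 in 3xTg and 7476 in WT. Ordered by label number, the cells fall into 5 runs of 1 genotype each. In 68 of 68 cells the label number and the second number of the column header map onto each other as positions counted along the rows and the columns of an 8 by 12 grid. The genotypes thus lie in blocks of that grid, and what the numbers mark is not stated in the sources used here. The lower-numbered runs are 17 WT cells numbered 1 to 22 and 21 3xTg cells numbered 24 to 55. The higher-numbered runs are 15 WT cells numbered 57 to 74 and 12 3xTg cells numbered 76 to 92, and 3 further WT cells are numbered 94 to 96.

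Th, Ddc, Slc6a3, Slc18a2 and Maoa each had at least 1 count in 68 of 68 cells. Pts had a count in 65 cells, Qdpr in 58, Gch1 in 50 and Maob in 29. All 9 genes were detected together in 22 cells (12 3xTg and 10 WT), and no cell had fewer than 6 of them. Of the 9 genes, 8 were among the 3988 expressed genes, which means that 80% or more of the 3xTg cells or of the WT cells reached a normalized count of 1, and Maob was not.

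Th, which encodes tyrosine hydroxylase, the rate-limiting enzyme of dopamine synthesis (chr7:142892776-142899966 of mm10, minus strand), was the most abundant of the 9. Its mean of 7240 CPM (counts scaled to a total of 1000000 per cell) placed it 5th of all 17940 genes with a count, without regard to transcript length. Normalized counts of Th had a median of 8343 in 3xTg (range 671 to 26801) and of 5466 in WT (range 1042 to 22644). The ranges overlapped nearly whole, and the lowest cell was 3xTg 42 and the highest 3xTg 36.

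Ddc encodes aromatic amino acid decarboxylase, which turns L-DOPA into dopamine (chr11:11814101-11898144, minus strand). Its normalized counts had a median of 1868 in 3xTg (range 348 to 5037) and of 1431 in WT (range 6.45 to 8894). A single cell, WT 96, set the low end, since 67 of 68 cells had at least 10 counts of Ddc. The gene overlaps 1700042O10Rik on the other strand, which had 394 counts over all cells against 135134 for Ddc.

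The 2 transporters also had high counts in most cells. Slc6a3, the plasma membrane dopamine transporter that ends transmission by reuptake (chr13:73536747-73578672, plus strand), had a median of 5599 in 3xTg (range 636 to 14036) and of 3208 in WT (range 230 to 11614). Slc18a2, the vesicular monoamine transporter VMAT2 (chr19:59260878-59296012, plus strand), had a median of 3392 in 3xTg (range 373 to 6992) and of 1792 in WT (range 16.1 to 7950). In both cases the lowest cells were WT cells, WT 68 for Slc6a3 and WT 11 for Slc18a2, and the medians lay higher in 3xTg. Slc6a3 ranked 9th, Slc18a2 13th and Ddc 34th by the same measure. Together with Th they held between 0.464% and 3.33% of a cell's counts, with a median of 1.95% in 3xTg and 1.49% in WT.

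Because these 4 genes also varied together over cells (described after the genotype comparison), the 100 bases before their RefSeq transcription starts (GRCm38.p6) are shown, 5′ to 3′ on the gene's strand. Capitals mark motifs searched on both strands of the 250 bases before the start: TGACGTCA (cyclic AMP response element) and AAAGGTCA (the site of NR4A receptors such as Nurr1). A homeodomain site of the bicoid type, spelled TAATCC, was searched in the same way. So was the TATA box, as TATAAA. The windows are chr7:142899996-142900095 for Th (minus strand), chr11:11898145-11898244 for the upstream of 2 Ddc starts (minus strand), chr13:73536647-73536746 for Slc6a3 (plus strand) and chr19:59260778-59260877 for Slc18a2 (plus strand).
Th: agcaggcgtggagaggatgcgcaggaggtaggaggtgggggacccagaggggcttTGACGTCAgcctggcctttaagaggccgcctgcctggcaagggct
Ddc: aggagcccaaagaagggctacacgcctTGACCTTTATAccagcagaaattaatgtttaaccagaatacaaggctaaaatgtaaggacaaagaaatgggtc
Slc6a3: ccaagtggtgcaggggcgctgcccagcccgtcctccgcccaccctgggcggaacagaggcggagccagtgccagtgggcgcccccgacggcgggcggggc
Slc18a2: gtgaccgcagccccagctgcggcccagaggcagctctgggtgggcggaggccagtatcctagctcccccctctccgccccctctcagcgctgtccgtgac
The Th window holds TGACGTCA from 45 to 38 bases before the start, a motif found in 1.55% of 32851 promoter windows. The Ddc window holds AAAGGTCA (1.34% of windows) and TATAAA (12.4% of windows) on the opposite strand, and these 2 overlap within the capitals. None of the 4 motifs was found in the Slc6a3 or Slc18a2 window, and TAATCC (6.25% of windows) was found in no member. The windows also differ in base composition: G and C made up 66% of the 250 bases for Slc6a3, 64.4% for Th and 64% for Slc18a2, but 40.8% for this Ddc start, beside a median of 52.4% over all windows. The other Ddc start, chr11:11890409-11890508 for its 100 bases, had 56% and no match, so the low G and C content and the motifs belong to the start shown and not to both. Of the members, 8 had a window, and the only other match was TATAAA on the opposite strand of Gch1, 188 to 183 bases before the start. These are letter matches and not measured sites.

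The cofactor genes were less abundant and more variable. Gch1 (chr14:47153895-47189402, minus strand) encodes GTP cyclohydrolase 1, the first and rate-limiting step of tetrahydrobiopterin synthesis. It was detected in 28 of 33 3xTg cells, or 84.8% (exact Clopper-Pearson 95% interval 68.1% to 94.9%). In WT it was detected in 22 of 35 cells, or 62.9% (44.9% to 78.5%). Its normalized counts had a median of 49.8 in 3xTg (range 0 to 708) and of 8.48 in WT (range 0 to 180). These intervals treat the cells as independent draws and leave out the spread between mice, so they do not serve to compare the genotypes.

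Pts, the 6-pyruvoyltetrahydropterin synthase of the next step (chr9:50521617-50528641, minus strand), was found in 32 of 33 3xTg cells and 33 of 35 WT cells. Its normalized counts reached 363 in 3xTg (median 50.4) and 320 in WT (median 12.3). Qdpr, the dihydropteridine reductase that regenerates the cofactor (chr5:45434032-45450229, minus strand), was found in 29 cells of each genotype, and its median was 186 in 3xTg and 133 in WT. Qdpr was either absent or well represented: 56 of the 58 cells with a count had at least 10 counts.

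The 2 monoamine oxidases, which lie tail to tail on the X chromosome, differed in how many cells held them. Maoa (chrX:16619698-16687812, plus strand) was present in every cell, with a median of 265 in 3xTg (range 3.07 to 1424) and of 170 in WT (range 7.59 to 1029). Maob (chrX:16709281-16817366, minus strand) was found in 16 of 33 3xTg cells, or 48.5% (30.8% to 66.5%), and its median was 0. In WT it was found in 13 of 35 cells, or 37.1% (21.5% to 55.1%), again with a median of 0. It reached 274 in 3xTg and 179 in WT. Without scaling to length, the normalized count of Maoa exceeded that of Maob in 33 of 33 3xTg cells and 33 of 35 WT cells. With each cell reduced to the same total, Maob was found in 45.2% of 31 3xTg cells and 40% of 30 WT cells, and Gch1 in 87.1% and 66.7%.

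Per kilobase of the longest RefSeq-matched transcript, levels from summed counts fell in the same order in both genotypes down to Pts. In 3xTg the order was Th at 4651 CPM per kilobase, Slc6a3 at 1548, Ddc at 1011, Slc18a2 at 891, Qdpr at 181, Maoa at 75.5, Pts at 74.9, Gch1 at 26.6 and Maob at 15.9. In WT it was Th at 3717, Slc6a3 at 1186, Ddc at 877, Slc18a2 at 662, Qdpr at 163, Maoa at 58, Pts at 45.5, Maob at 16.9 and Gch1 at 14.9. Poisson intervals of neighbours overlapped only for Maoa and Pts in 3xTg, and these intervals leave out the spread between cells, which was far wider. The cofactor genes thus lay well below Th, the gene of the hydroxylase they serve.

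**Figure D1:**
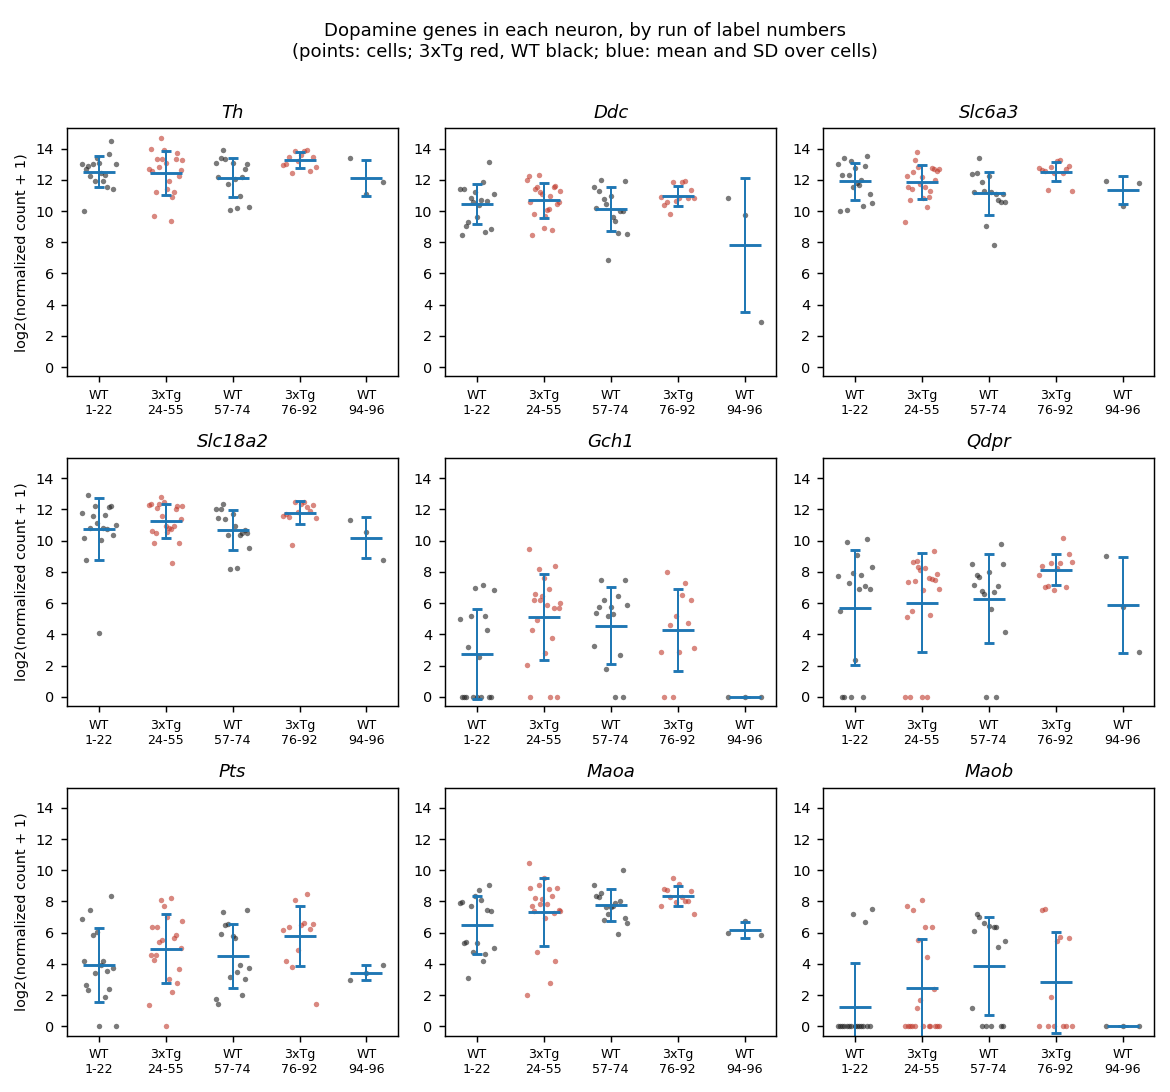
Level of each gene in each cell as log2(normalized count + 1), with cells in the 5 runs of label numbers on the horizontal axis (3xTg red, WT black) and the mean and SD over cells in blue. Th, Ddc, Slc6a3 and Slc18a2 stay above 6 on this scale in all cells but WT 96 (Ddc) and WT 11 (Slc18a2), whereas Gch1, Qdpr, Pts and Maob include cells at 0.

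The comparison of 3xTg with WT asks whether the dopamine program differs in neurons that carry the transgenes. On the mean of log2 values all 9 genes were higher in 3xTg, by 0.31 (Maob) to 1.52 (Gch1), with a median of 0.72. This has to be read against all expressed genes, of which 70.9% were higher in 3xTg, with a median of 0.47. Of the 9 genes 7 lay above that median, and Th (0.41) and Maob (0.31) lay below it. Gch1 and Pts were higher by at least 1, which was also true of 27.7% of the 3988 expressed genes.

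For the 4 abundant genes the differences were well within the spread of cells. Mean log2 values of Th were 12.74 ± 1.20 in 3xTg (SD, n = 33 cells) and 12.33 ± 1.12 in WT (n = 35 cells). For Slc6a3 they were 12.10 ± 0.98 and 11.52 ± 1.27, a difference of 0.58. For Ddc they were 10.80 ± 0.97 and 10.08 ± 1.79, a difference of 0.72 that was 0.51 without WT 96. For Slc18a2 they were 11.47 ± 1.0 and 10.66 ± 1.63, a difference of 0.81 that was 0.62 without WT 11. In each of these 3 genes the SD was wider in WT, whose lowest cells included the 3 cells with the lowest mean of the 4 genes (WT 65, WT 96 and WT 68).

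Among the cofactor genes, Gch1 averaged 4.80 ± 2.69 in 3xTg cells and 3.28 ± 2.87 in WT cells, and the difference of 1.52 exceeded that of 88.2% of expressed genes. Over cells with a count alone the Gch1 difference was 0.44. With 0.1 or 10 added to the normalized count in place of 1 it was 2.25 or 0.84, so its size depended on the cells at 0. Pts averaged 5.26 ± 2.12 and 4.13 ± 2.13, a difference of 1.13. Qdpr averaged 6.78 ± 2.78 and 5.97 ± 3.23, a difference of 0.81. For the oxidases, Maoa averaged 7.70 ± 1.81 and 7.02 ± 1.57, a difference of 0.68, and Maob 2.58 ± 3.13 and 2.26 ± 3.14, a difference of 0.31 that was 0.14 without 3xTg 39. With 1 added, every one of these differences over all cells was smaller than the SD over cells of either genotype.

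Summed over cells, which weights cells by their counts and not by their log values, the differences were smaller, as was that of the median expressed gene. The 9 genes had a median of 0.38, which lay at the 80.2 percentile of expressed genes, and 8 of 9 lay above the median gene. On mean log2 values their median lay at the 61.2 percentile. Gch1 had 73.9 CPM in 3xTg (exact Poisson 95% interval 71.1 to 76.7) and 41.4 CPM in WT (39.3 to 43.7), a log2 ratio of 0.84. Pts followed with 0.72, then Slc18a2 with 0.43, Slc6a3 with 0.38, Maoa with 0.38, Th with 0.32, Ddc with 0.21 and Qdpr with 0.15, while Maob had −0.10. None of the 9 reached a log2 ratio of 1, as 2.61% of expressed genes did, and the median expressed gene had −0.03. The direction of Maob thus depended on how cells were summarised, and it changed again without WT 59 (0.06), while it was −0.33 without 3xTg 39. A single cell held up to 16.9% of a gene's 3xTg sum (3xTg 77 for Maob) and up to 13.7% of a WT sum (WT 72 for Maoa and WT 59 for Maob). Qdpr had 0.03 without 3xTg 89 and 0.30 without WT 72, Maoa had 0.55 without WT 72, and Gch1 had 0.64 without 3xTg 26.

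The genotype differences were not alike in the 2 pairs of runs, and neither was that of the median expressed gene, 0.39 between the lower-numbered and 0.60 between the higher-numbered runs. Between the lower-numbered runs, the mean log2 differences of Th (−0.09) and Slc6a3 (−0.05) were near 0. That of Ddc (0.27) lay below the median expressed gene of those runs and that of Slc18a2 (0.55) above it. Between the higher-numbered runs the same 4 genes were higher in 3xTg by 1.12, 1.40, 0.84 and 1.12, and their log2 ratios of summed counts there were 0.48, 0.74, 0.19 and 0.57. Gch1 and Maob went the other way. Gch1 was higher in 3xTg by 2.37 between the lower-numbered runs and lower by −0.29 between the higher-numbered runs, and Maob was higher by 1.18 and then lower by −1.04. Pts was higher in 3xTg in both (1.05 and 1.26), with log2 ratios of summed counts of 0.84 and 0.45. Maoa had 0.83 and 0.58 on mean log2 values but 0.71 and 0.02 on summed counts, and Qdpr had 0.32 and 1.84 on mean log2 values. The difference between pairs of runs was not tested, because the cells of a run cannot be assigned to animals.

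Gch1 and Maob shifted between the WT runs. Gch1 was found in 9 of 17 WT cells numbered 1 to 22, in 13 of 15 numbered 57 to 74 and in 0 of 3 numbered 94 to 96, whereas it was found in 18 of 21 and 10 of 12 cells of the 3xTg runs. Maob was found in 3 of 17, 10 of 15 and 0 of 3 WT cells and in 10 of 21 and 6 of 12 3xTg cells. The median number of genes detected was 5233 for WT 1 to 22, 6216 for WT 94 to 96 and 8441 for WT 57 to 74, against 7648 and 9308 in the 3xTg runs. Its part in the detection of Gch1 and Maob was not tested. For Th, Ddc, Slc6a3 and Slc18a2 the 3xTg cells numbered 76 to 92 stood out as the tightest group, with a mean over the 4 genes of 12.14 ± 0.56 (SD, n = 12 cells), against 11.57 ± 0.99 in the other 3xTg run and 11.40 ± 0.97 and 11.03 ± 1.25 in the long WT runs.

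**Figure D2:**
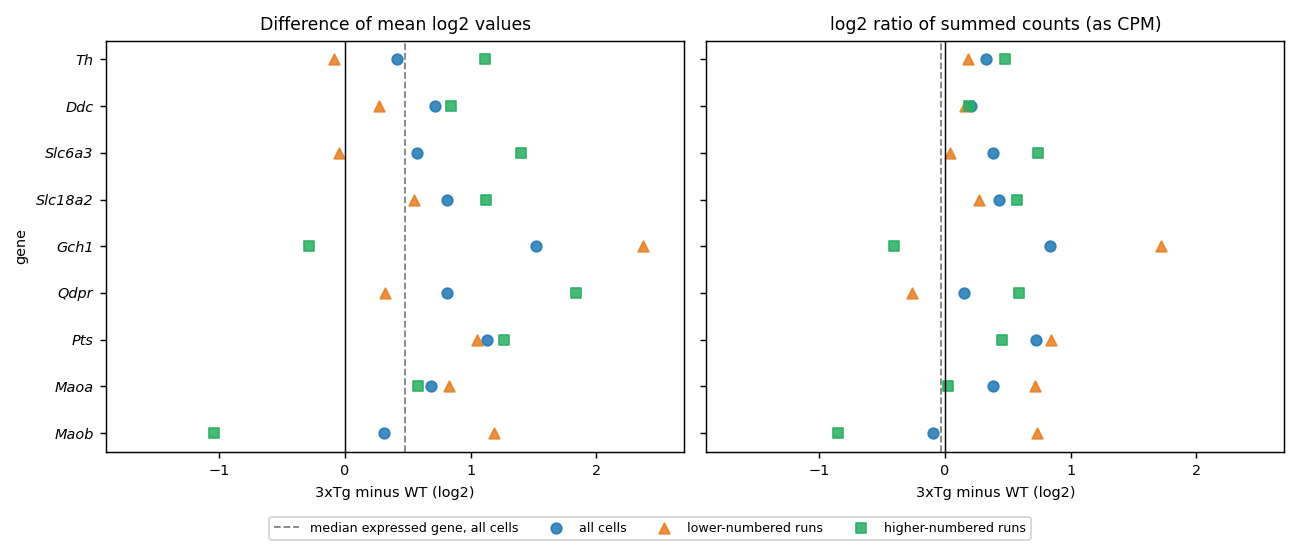
Difference between 3xTg and WT for each gene (log2, horizontal axis) as the difference of mean log2 values (left) and as the log2 ratio of summed counts (right), for all cells and for the lower- and higher-numbered runs alone. The dashed line is the median expressed gene over all cells (0.47 and −0.03). Gch1 and Maob lie right of 0 in the lower-numbered runs and left of it in the higher-numbered runs. Ddc, Slc18a2, Pts and Maoa stay to the right in all, Maoa by only 0.02 on summed counts in the higher-numbered runs.

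Over the 68 cells the members varied together to very different degrees. All correlations given here are Spearman's rho over cells that share libraries' depth and quality differences, and they are descriptions without a test. The 6 pairs among Th, Ddc, Slc6a3 and Slc18a2 had rho between 0.56 and 0.76, with a median of 0.71. Th with Slc18a2 had 0.76, Th with Ddc 0.75, Th with Slc6a3 0.72, Slc6a3 with Slc18a2 0.70, Ddc with Slc18a2 0.69 and Ddc with Slc6a3 0.56. Over all pairs of expressed genes the median was 0.05 and the 95th percentile 0.46.

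The same 6 pairs held within each genotype, with a median of 0.72 in 3xTg and 0.65 in WT. Th with Slc18a2 had 0.85 in 3xTg and 0.65 in WT, and Ddc with Slc18a2 had 0.82 and 0.59, whereas Th with Ddc had 0.75 and 0.77. After each cell was expressed as its deviation from the mean of its run, the median of the 6 pairs was 0.69.

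The other members were tied more loosely to these 4. Qdpr came nearest, with 0.57 to Th and 0.55 to Ddc but 0.33 to Slc6a3, and a mean over the 4 genes of 0.46. Pts had a mean of 0.34, Gch1 0.31, Maoa 0.25 and Maob 0.25. The 20 pairs that join 1 of the 4 to another member ran from 0.14 to 0.57. The enzymes that make and those that regenerate the cofactor were themselves weakly related, with 0.29 for Gch1 and Pts, 0.15 for Gch1 and Qdpr and 0.30 for Qdpr and Pts. The 2 oxidases, neighbours on the chromosome, had 0.37.

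Gch1 and Maob formed the closest of the 10 pairs among the other 5 members, with rho of 0.48 over all cells, 0.51 in 3xTg and 0.49 in WT. Maob was found in 26 of 50 cells with Gch1 (52%, interval 37.4% to 66.3%) and in 3 of 18 cells without it (16.7%, interval 3.58% to 41.4%). Cells with Gch1 also had more genes detected (median 8374 against 5803). With the number of genes detected removed by a linear fit rho was 0.34, and with run means removed it was 0.32. Maob was found in 11 of 23 cells with a count of an astrocyte marker (Aldh1l1, Gfap, Aqp4, Slc1a3 or Gja1) and in 18 of 45 without.

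**Figure D3:**
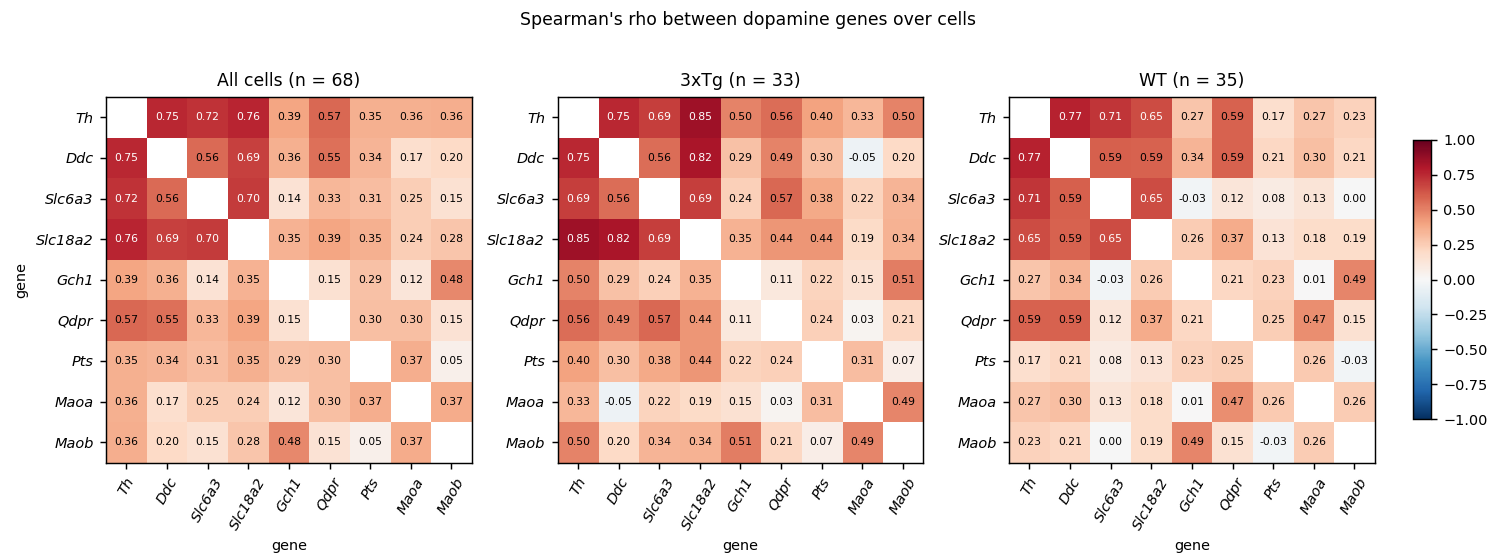
Spearman's rho between the 9 genes over all 68 cells (left), 33 3xTg cells (middle) and 35 WT cells (right), on a color scale from −1 to 1. The block of Th, Ddc, Slc6a3 and Slc18a2 at the upper left holds values of 0.56 to 0.76 over all cells. Outside it only Th with Qdpr reaches that range over all cells (0.57), and Gch1 with Maob has 0.48.

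Within a cell, the ratio of the 2 transporters and the decarboxylase to Th was steadier for some genes than for others. In counts not scaled to length, the log2 ratio of Slc6a3 to Th was −0.73 ± 0.84 (SD, n = 68 cells), which was less spread than either gene alone (SD 1.16 for Slc6a3 and 1.17 for Th). The Slc6a3 to Th ratio was −0.64 ± 0.85 in 3xTg and −0.81 ± 0.85 in WT. Slc18a2 relative to Th was −1.27 ± 0.78 in 3xTg and −1.67 ± 1.54 in WT, and Ddc relative to Th was −1.94 ± 0.86 and −2.25 ± 1.40. Slc6a3 exceeded Th in 6 3xTg and 4 WT cells, and Ddc exceeded Th in 2 3xTg cells and no WT cell. Single cells departed widely: in WT 96 Ddc was lower than Th by a log2 ratio of −8.98, and in WT 11 Slc18a2 had the same ratio of −8.98.

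**Figure D4:**
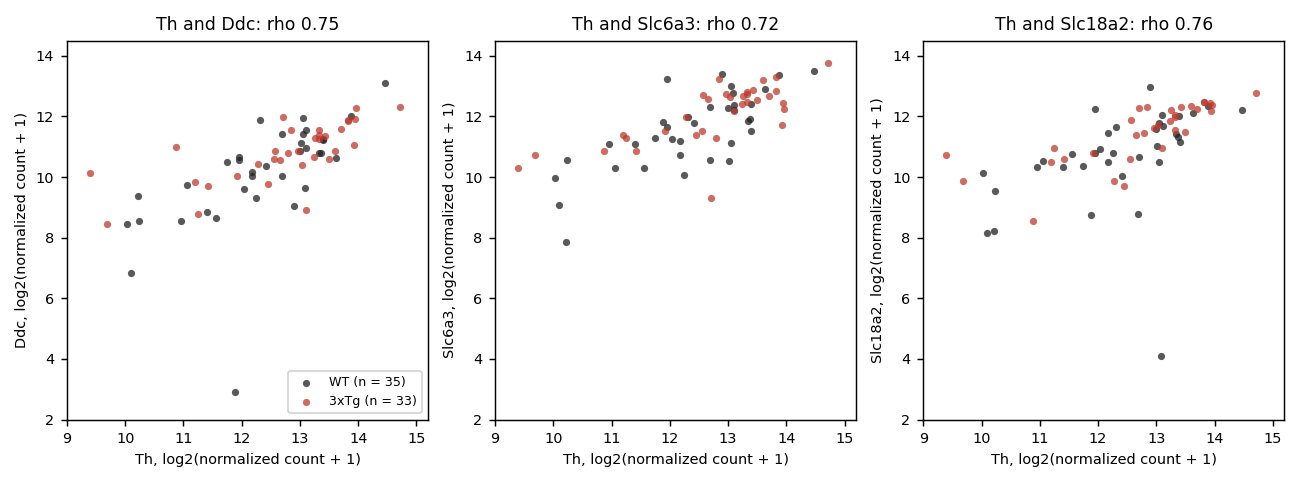
Th against Ddc, Slc6a3 and Slc18a2 in each of 68 cells, both axes as log2(normalized count + 1), 3xTg in red and WT in black. Points rise together in all 3 panels (rho 0.75, 0.72 and 0.76), apart from WT 96 low in the Ddc panel and WT 11 low in the Slc18a2 panel.

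The correlations moved with the size of the library. The mean log2 level of Th, Ddc, Slc6a3 and Slc18a2 had rho of 0.81 with the total counts of the cell (0.72 in 3xTg and 0.77 in WT), −0.74 with Malat1, a long noncoding RNA of the nucleus, and 0.04 with the number of genes detected. Expressed as CPM in place of size factors, the median of the 6 pairs was 0.53 against a 95th percentile of 0.51 over all expressed pairs, and with cells reduced to equal totals it was 0.49 against 0.48. With log2 total counts removed by a linear fit it was 0.41 against 0.35, and with Malat1 removed 0.61 against 0.38. The 6 pairs stayed above 0 in all of these settings, the lowest being Ddc with Slc18a2 at 0.25 after removal of total counts. Qdpr's mean rho with the 4 genes was 0.13 after that removal.

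**Figure D5:**
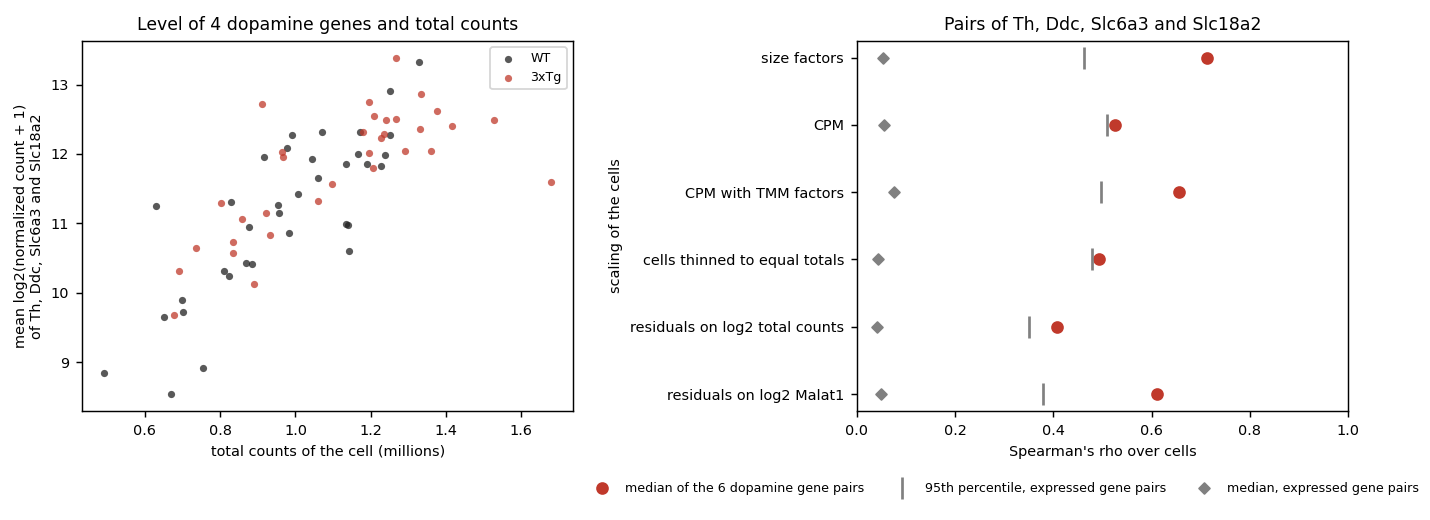
Left, mean log2(normalized count + 1) of Th, Ddc, Slc6a3 and Slc18a2 in each cell against its total counts (in units of 1000000) (3xTg red, WT black), which rise together with rho of 0.81. Right, median rho of the 6 pairs (red), with the median (diamond) and 95th percentile (bar) over pairs of expressed genes, under 6 ways of scaling the cells, where the red point lies at 0.71 with size factors and at 0.41 to 0.66 otherwise.

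The genes whose pattern over cells was most like that of Th were Slc7a11 (0.86), which encodes a cystine-glutamate exchanger, and the glycolytic genes Aldoa (0.86) and Eno1 (0.86). For Ddc they were Septin7 (0.82), listed in the table under a date-like symbol and resolved by its gene ID, the chaperone gene Hspa8 (0.82) and the synaptic gene Snap25 (0.81). For Slc6a3 they were Dlk1 (0.80), Tubb4a (0.80) and Ap2m1 (0.79), and for Slc18a2 Mdh1 (0.84), Zwint (0.83) and Myl12b (0.82). The best of the other 3 came 50th for Th (Slc18a2), 23rd for Ddc (Th), 23rd for Slc6a3 (Th) and 26th for Slc18a2 (Th).

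The cofactor and breakdown genes had weaker likenesses. Qdpr was nearest to Gsta4 (0.72), Capzb (0.71) and Cnbp (0.69), and Pts to Gprasp2 (0.61), Rrp1 (0.60) and Fbxo44 (0.59). Gch1 was nearest to Rrnad1 (0.55) and Bend6 (0.54), Maoa to Atraid (0.62), Mrpl23 (0.56) and 2810428I15Rik (0.51), and Maob to BC048546 (0.54), Dnm3 (0.51) and Maged2 (0.50).

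By mean rho with Th, Ddc, Slc6a3 and Slc18a2 the leading genes were Hspa8 (0.78), Aldoa (0.77), Tuba1c (0.77), Zwint (0.77), Tuba1a (0.76), Eno1 (0.76), Mdh1 (0.76), Slc7a11 (0.76), Ap2m1 (0.76) and Gm6682 (0.76), against a median of 0.20 over 3984 expressed genes. Among the 500 expressed genes of highest level that median was 0.55. Tuba1a, Tuba1c and the predicted gene Gm6682 can share reads with close copies, and their separate values are uncertain. Qdpr ranked 750th on this measure, Pts 1447th, Gch1 1583rd and Maoa 1813th.

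Of 28 further genes of the pathway, 7 were expressed by the same rule, and 2 of these (Akr1a1 and Akr1b3) were higher in 3xTg by at least 1 on the mean log2 scale, none lower by 1 and none past 1 on summed counts. That share is near the 27.7% of all expressed genes that were higher by at least 1. Akr1a1 and Akr1b3 encode aldehyde-reducing enzymes and were higher by 1.47 and 1.01, with log2 ratios of summed counts of 0.34 and 0.42, and had rho of 0.71 and 0.62 with the mean of the 4 genes. Aldh1a1, which oxidises the dopamine aldehyde and marks a subset of dopamine neurons, was found in 23 3xTg and 27 WT cells and had rho of 0.11 with the 4 genes. Other genes of cofactor metabolism were found in part of the cells: Spr in 25 3xTg and 20 WT cells, Pcbd1 in 26 and 23, Pcbd2 in 13 and 6 and Gchfr in 1 and 3. The release-regulating autoreceptor gene Drd2 was found in 22 3xTg and 13 WT cells, but its summed level was 25.8 CPM in 3xTg and 27.7 CPM in WT.

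Routes to other amines were at or near 0. Dbh, Pnmt, Tph1, Slc6a4 and Slc22a3 had no count in any of the 68 cells. Tph2 was found in 1 WT cell, and Hdc and Slc29a4 in 1 cell of each genotype. Slc6a2, the noradrenaline transporter, had at most 33.9 counts in a cell but was found in 29 3xTg and 31 WT cells, and Slc18a1, the other vesicular monoamine transporter, in 15 3xTg and 4 WT cells at 7.68 and 0.56 CPM.

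Markers of other cells had low medians, but in single cells their sums exceeded the mean level of Ddc (1806 CPM). The mean level of Maob was 40.8 CPM. Of 5 astrocyte markers 4 were found, over 10 3xTg and 13 WT cells, with summed levels up to 272 CPM in 3xTg and 2410 CPM in WT and a median of 0 in both. Aldh1l1, which the study selected against, was at 0. Microglial markers summed to a median of 34.6 CPM in 3xTg and 25.4 CPM in WT (range 0 to 4211 and 0 to 2869), and oligodendrocyte markers to 24.1 and 35.9 CPM (range 0 to 556 and 1.78 to 2538). The summed microglial list had rho of −0.36 and the oligodendrocyte list −0.39 with the mean of the 4 genes. The GABA neuron list (Gad1, Gad2, Slc32a1 and Pvalb) had a median of 28.6 CPM in 3xTg and 38.1 CPM in WT and rho of −0.70 with the 4 genes. Most counts of that list were of Gad2, which was found in 33 3xTg and 35 WT cells and alone had rho of −0.68. Gad1 (5 3xTg and 6 WT cells), Slc32a1 (2 and 3) and Pvalb (1 and 2) had 0.04, 0.02 and −0.07. The part of other cells in the levels of the members was not tested beyond 1 measurement: with the 5 3xTg and 5 WT cells removed in which Pvalb, Tmem119, P2ry12 or Aldh1l1 was above 0, the 6 pairs had a median of 0.70. The genotype difference then had a median of 0.60 over the 9 genes, and was 2.14 for Gch1, 0.40 for Qdpr and −0.15 for Maob. Aldh1l1 removed no cell, being at 0. No cell was removed for other markers, such as C1qb (found in 10 3xTg and 13 WT cells) or Mbp (32 and 35). The part of cells with those markers was not tested.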

How the data were processed

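Polyadenylated RNA of 68 patched neurons was sequenced, 1 library a cell. The authors trimmed reads, aligned them to the mm10 RefSeq transcriptome in Strand NGS, removed duplicates and deposited estimated counts per gene, with log2 values that they normalized with DESeq2. Many estimated counts are not whole (a member's count differed from a whole number by over 0.001 in 27.9% of cells for Maob to 100% for Th), and how reads shared between genes were counted, and whether strand was used, is not given in the sources used here. Groups came from the sample titles. The 9 members, the gene lists and the comparisons were chosen with earlier results of these data known.

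Deposited counts were divided by median-of-ratios size factors from the 787 genes that were above 0 throughout, and log2 values used a pseudocount of 1, which understates changes of low genes. A gene counted as expressed if, in either genotype, 80% or more of the cells reached a normalized count of 1. Genotypes were compared by the difference of mean log2 values and by the log2 ratio of summed counts as CPM. With 1 sample a genotype no test was run, and a log2 difference of 1 was the size counted. Intervals are exact 95% Clopper-Pearson (shares) or Poisson (sums, rounded). The Clopper-Pearson intervals treat cells as independent draws, and the Poisson intervals treat reads so. Since reads carry no molecular identifiers, the Poisson intervals do not cover the error from amplification. Neither kind covers the spread between animals. Named genes were the members, the list of further pathway genes, the 3 expressed genes of highest rho with each member and the 10 of highest mean rho with Th, Ddc, Slc6a3 and Slc18a2. Some of the genes and alleles that this rule or the design names are not reported here. Malat1 was chosen after its values were seen. Cells were thinned to 700471 counts each (the 10th percentile of totals), which left out 2 3xTg and 5 WT cells. Transcript lengths came from GENCODE M21 and promoter sequences from RefSeq (GRCm38.p6). Alternatives were CPM, TMM factors (edgeR 4.0.16, R 4.3.3), pseudocounts of 0.1 and 10, thinned cells, cells with a count alone, the authors' log2 values, runs alone and each cell left out. Scripts used Python 3.11.15 and scipy 1.17.1 and were tested on simulated data.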

Additional observations from a re-analysis of the deposited data

How the results depend on the processing

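Over the 9 genes the median difference between genotypes (0.72) was 0.38 as the log2 ratio of summed counts, 0.49 with cells thinned to equal totals and 1.12 between the higher-numbered runs, and it ran from 0.63 to 0.81 as each cell was left out. The number of genes higher in 3xTg was 7 to 9 under the alternatives run. The median expressed gene moved with them, from −0.03 on summed counts, where 47.9% of expressed genes were higher in 3xTg (70.9% on mean log2 values), to 0.60 between the higher-numbered runs. The reversed values were those of Th (−0.086) and Slc6a3 (−0.046) between the lower-numbered runs, of Gch1 (−0.29) and Maob (−1.04) between the higher-numbered runs, and of Maob with summed counts (−0.10), without cells holding markers of other types (−0.15) and over cells with a count alone (−0.78). As log2 ratios of summed counts, Gch1 between the higher-numbered runs (−0.41) and Qdpr between the lower-numbered runs (−0.26) were reversed, and Maob was reversed to 0.73 between the lower-numbered runs and to at most 0.064 as each cell was left out (lowest −0.33). Between the higher-numbered runs the share of cells with Gch1 was lower in 3xTg by −3.33 percentage points and that with Maob by −16.7 percentage points. The cause was not tested.

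The median rho over the 36 pairs (0.35) was 0.21 as CPM, 0.19 with thinned cells, 0.18 with total counts removed and 0.24 with Malat1 removed, and 0.32 to 0.36 as each cell was left out. For the 6 pairs of Th, Ddc, Slc6a3 and Slc18a2 the median (0.71) was 0.54 as Pearson's r, 0.53 as CPM, 0.49 with thinned cells, 0.41 with total counts removed and 0.61 with Malat1 removed, and 0.70 to 0.74 as each cell was left out. Removal of total counts and of Malat1, and run splits of summed counts, were chosen after seeing the data. Over 12 alternatives 11 of the 36 pairs fell below 0 at least once (lowest −0.11), none of them among the 6. No paired analysis was possible because the genotypes share no label numbers and no test was run.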
